A study of Mus musculus with 2 samples.

Results

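The endothelium described here is the set of kidney cortex endothelial cells that carried messenger RNA of Ehd3, an endocytic recycling protein known in mice as a marker of the glomerular capillary. A cell is represented by its droplet barcode, and RNA by unique molecular identifiers (UMIs), each counting 1 captured molecule. Barcodes of 1000 or more UMIs, 200 or more genes and up to 50% mitochondrial UMIs were kept. Members had the endothelial genes Pecam1, Cdh5, Egfl7, Emcn and Kdr together at 5 or more per 10000 UMIs, 1 or more UMI of Ehd3, and 0 UMIs of the vasa recta urea transporter Slc14a1 and of the leukocyte gene Ptprc. There were 361 members among 5076 kept barcodes of the PT I-PpoI library and 645 among 10412 of the wild-type library, 1006 of 15488 in all. Members were thus selected on the measured levels of Ehd3 and of the 5 endothelial genes, which are given as description only.

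Both libraries were made from kidney cortex of mice 16 weeks old, 1 library from PT I-PpoI and 1 from wild type. I-PpoI is a homing endonuclease that cuts both DNA strands. The series title places its expression in proximal tubule epithelium, so the endothelium itself is not the cell type named as expressing it. The promoter or Cre driver of the transgene, the strain, the sex and the number of animals per library are not given in the sources used here, nor is it stated whether the wild-type mice carried any allele of the system. Each group had a single library, so none of the differences between groups was tested. All intervals below are 95% intervals that cover counting error only, not differences between animals.

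The glomerular capillary is the filter of the kidney. Its endothelium is perforated by open fenestrae and rests on a basement membrane shared with podocytes, whose VEGF signals to it through the receptor Kdr. Fenestrae of peritubular capillaries are instead closed by diaphragms built from Plvap, a protein that adult glomerular endothelium largely lacks. Arterioles that feed the glomerulus express gap junction, Notch and elastic fibre genes such as Gja4, Gja5, Jag1 and Fbln5.

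The libraries held 93257620 UMIs in PT I-PpoI, against 107977310 in wild type, and kept barcodes had a median of 11633 and 3344 UMIs. Members were shallower, with 4827 UMIs in the median PT I-PpoI member (range 1024 to 63757) and 2496 in the median wild-type member (range 1007 to 31486). They summed to 3852049 and 2399867 UMIs. Mitochondrial genes took a median of 2.98% of member UMIs in PT I-PpoI, against 6.61% in wild type, and free RNA was estimated at 16.4% and 29.0%. Of the kept barcode sequences, 19 occurred in both libraries. Scrublet marked 14 and 36 members as doublets, out of 58 (1.14%) and 312 (3.00%) barcodes marked in each library.

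Members made up 7.11% of kept barcodes in PT I-PpoI (6.42 to 7.85) and 6.19% in wild type (5.74 to 6.68). Of all endothelial barcodes, 878 and 2341, they were 41.1% in PT I-PpoI (37.8 to 44.5) and 27.6% in wild type (25.8 to 29.4). A single UMI of Ehd3 is found more readily in a deeper cell, so the share was also taken with every cell thinned to 1000 UMIs. Among endothelial barcodes without Slc14a1, 16.6% of PT I-PpoI cells (14.1 to 19.4) and 15.02% of wild-type cells (13.6 to 16.6) then kept an Ehd3 UMI, against 45.4% and 28.9% before thinning. At equal depth the intervals, which cover counting error only, overlapped, and thinning left 132 and 335 barcodes with Ehd3. Whether the share of Ehd3-positive endothelium differed between the groups was not tested, with 1 library each. In thick ascending limb barcodes, an epithelium used as the background for free RNA, the thinned share with Ehd3 was 0.657% in PT I-PpoI, against 0.219% in wild type.

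Most members carried little Ehd3. In PT I-PpoI, 180 members had 1 UMI, 68 had 2 and 113 had 3 or more, up to 127 in 1 barcode. In wild type, 410 had 1 UMI, 146 had 2 and 89 had 3 or more, up to 26. On the endothelial sum, the members just inside the threshold had 5.04, 5.21 and 5.48 per 10000 UMIs in PT I-PpoI and 5.08, 5.44 and 5.85 in wild type. The nearest Ehd3-carrying barcodes outside it had 4.93, 4.79 and 4.55 in PT I-PpoI and 4.32, 3.82 and 3.03 in wild type. The median member stood far above that line, at 77.1 and 76.6.

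The name glomerular endothelium was checked against its 4 markers and against Plvap. By UMI limits that depend on depth, it held for a small fraction of the members only. Over the members, Ehd3 reached 346 CPM (UMIs of the gene per 1000000 UMIs of the members) in PT I-PpoI and 466 CPM in wild type, and Emcn, an endothelial sialomucin, 1996 and 2347 CPM. Kdr stood at 989 CPM in PT I-PpoI and 1319 CPM in wild type. Plat, tissue plasminogen activator and the 1 marker that the selection did not use, stood at 307 CPM in PT I-PpoI members and 290 CPM in wild-type members. In the other endothelium, which had neither Ehd3 nor Slc14a1, Plat was at 93.4 and 119 CPM, so members were higher by a log2 ratio of 1.71 in PT I-PpoI, against 1.29 in wild type. In Slc14a1-positive endothelium, however, Plat was level with the members, at 294 CPM in PT I-PpoI and 295 CPM in wild type. Plat was thus not particular to the members.

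Plvap went against the name. It stood at 1367 CPM in PT I-PpoI members and 1859 CPM in wild-type members, above the 950 CPM of other endothelium in PT I-PpoI and its 1426 CPM in wild type. The median member had 22.5 Plvap UMIs per 10000 in PT I-PpoI, against 22.7 in wild type. After thinning, 72.0% of PT I-PpoI members (67.1 to 76.6) and 79.5% of wild-type members (76.2 to 82.6) had a Plvap UMI, against 53.6% and 65.5% of other endothelium and 0.657% and 0.437% of thick ascending limb barcodes. Plat was read in 17.5% of thinned PT I-PpoI members and 16.4% of thinned wild-type members, against 11.03% and 12.2% of other endothelium, and 5 of 1523 and 0 of 915 thick ascending limb barcodes, where 0 allows a share of up to 0.328%. Because most members carried the diaphragm gene of peritubular capillaries, they are called Ehd3-positive endothelium here.

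**Figure D1:**
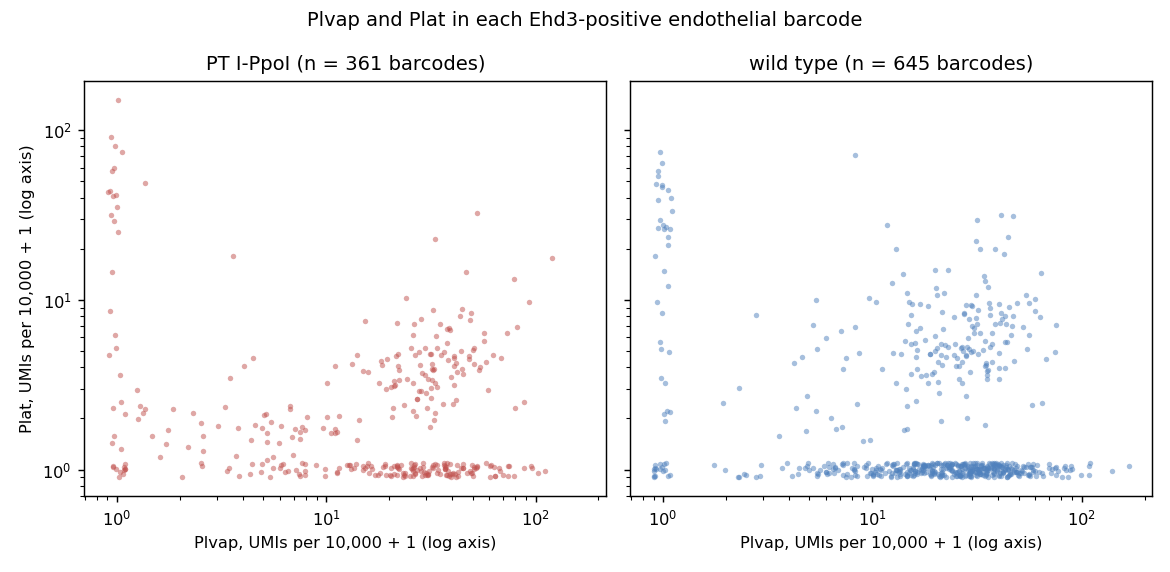
Plvap (horizontal) and Plat (vertical) in each Ehd3-positive endothelial barcode, both in UMIs per 10000 plus 1 on log axes, with 361 PT I-PpoI barcodes on the left and 645 wild-type barcodes on the right. A small random spread was added to separate points at 0. Barcodes with the highest Plat lie mostly on the left edge, where Plvap is 0, and the bulk of members lie at high Plvap with little or no Plat.

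Members without any Plvap UMI numbered 37 in PT I-PpoI (10.2%, 7.32 to 13.9) and 50 in wild type (7.75%, 5.81 to 10.1). This subset was chosen with the values known, and its contrast with the Plvap-positive members shares no cells between its sides but comes from the same 2 libraries. Plvap-negative members were deeper, with a median of 6878 UMIs, against 4570 in Plvap-positive members, in PT I-PpoI, and 2869 against 2456 in wild type. Their number depends on depth, as a Plvap UMI was read in 89.8% of whole and 72.0% of thinned PT I-PpoI members. In wild type it was read in 92.2% of whole and 79.5% of thinned members. Of 3057 genes tested in both libraries, 69 (2.26%) were 2-fold or more higher in Plvap-negative members in both, and 35 (1.14%) were 2-fold or more lower. Plat was at 1393 CPM in Plvap-negative and 159 CPM in Plvap-positive members of PT I-PpoI, and at 1508 CPM in Plvap-negative and 148 CPM in Plvap-positive members of wild type, so it was high in Plvap-negative cells of both libraries. Of 13 glomerular genes tested, 6 were higher (Plat, Pi16, Smad6, Mapt, Tbx3 and Lpl), with list medians on the log2 scale of 1.10 within PT I-PpoI and 1.32 within wild type. Emcn and Kdr, in contrast, differed little between the subsets in summed CPM. Their log2 ratios were -0.15 and -0.08 in PT I-PpoI and 0.10 and -0.11 in wild type. The median cell did differ in PT I-PpoI, at 6.25 Emcn UMIs per 10000 in Plvap-negative and 25.9 in Plvap-positive members. For Kdr these medians were 1.04 and 15.7. In wild type the medians of the subsets were close, at 29.4 and 29.0 for Emcn and 17.3 and 16.0 for Kdr.

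Arterial and arteriolar genes were also higher in the Plvap-negative members, 9 of 15 in both libraries with medians of 1.35 and 2.60. Gja5, a connexin of arterial endothelium and renin cells, stood at 209 CPM in Plvap-negative and 28.3 CPM in Plvap-positive members of PT I-PpoI, and at 152 CPM in Plvap-negative and 7.91 CPM in Plvap-positive members of wild type. Mgp, an inhibitor of vascular calcification, stood at 1114 CPM in Plvap-negative and 228 CPM in Plvap-positive members of PT I-PpoI and at 1021 CPM in Plvap-negative and 70.7 CPM in Plvap-positive members of wild type. The tight junction gene Cldn5 stood at 1961 CPM in Plvap-negative and 312 CPM in Plvap-positive members of PT I-PpoI and at 810 CPM in Plvap-negative and 96.8 CPM in Plvap-positive members of wild type. Jag1, a Notch ligand, Vegfc, a growth factor of lymphatic endothelium, Bmp6, Stmn2, Socs3, Pde3a and Hopx completed the genes named as highest, along with Ren1, whose counts lay largely in single barcodes.

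Capillary genes were lower in Plvap-negative members, 4 of 12 with medians of -1.02 and -0.73, a list whose count includes Plvap itself. Rgcc, a cell cycle regulator, stood at 4.35 CPM in Plvap-negative and 430 CPM in Plvap-positive members of PT I-PpoI, and at 116 CPM in Plvap-negative and 1066 CPM in Plvap-positive members of wild type. Esm1, a proteoglycan induced by VEGF, stood at 50.1 CPM in Plvap-negative and 960 CPM in Plvap-positive members of PT I-PpoI and at 175 CPM in Plvap-negative and 1314 CPM in Plvap-positive members of wild type. The natriuretic peptide clearance receptor Npr3 stood at 2.18 CPM in Plvap-negative and 196 CPM in Plvap-positive members of PT I-PpoI and at 39.9 CPM in Plvap-negative and 284 CPM in Plvap-positive members of wild type. All 3 were several-fold lower in Plvap-negative cells of both libraries. Other genes named as lowest were Apoe, Btnl9, Ptpru, Cryab and the class II gene H2-Ab1, and the tubule genes Slc12a3, Tmem213, Car2 and Defb1.

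**Figure D2:**
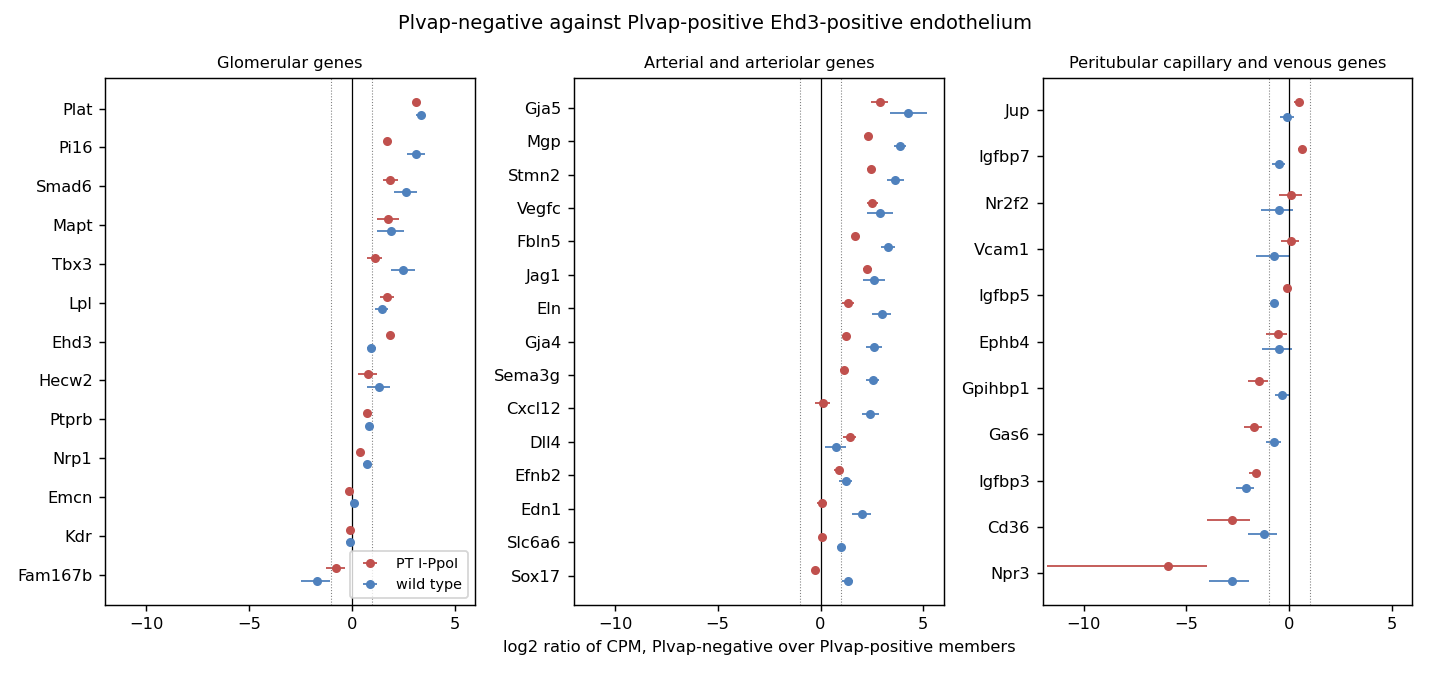
Log2 ratio of CPM in Plvap-negative over Plvap-positive Ehd3-positive endothelium for the tested glomerular, arterial and capillary or venous genes other than Plvap, with 95% counting intervals, PT I-PpoI in red above wild type in blue. Dotted lines mark 2-fold. Plat and Gja5 lie well to the right in both libraries, Emcn and Kdr at the centre, and Npr3 to the left.

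The Plvap-negative members were themselves mixed. Mural and mesangial genes reached 10 or more per 10000 UMIs in 9 of 37 such members in PT I-PpoI and 7 of 50 in wild type, against 6 of 324 and 10 of 595 Plvap-positive members. They lay mainly in the Plvap-negative members with 0 UMIs of Plat, 8 of 11 in PT I-PpoI and 6 of 17 in wild type, and in 1 of 26 and 1 of 33 of those with Plat. Of 7 mural markers tested, 4 were higher in Plvap-negative members in both libraries, and the whole list summed to 2766 CPM in Plvap-negative and 302 CPM in Plvap-positive members of PT I-PpoI and to 2924 CPM in Plvap-negative and 550 CPM in Plvap-positive members of wild type. The renin gene Ren1, on this list, held 1787 CPM of the wild-type Plvap-negative sum, largely in 1 barcode. The 13 other markers summed to 2485 CPM in Plvap-negative and 265 CPM in Plvap-positive members of PT I-PpoI and to 1137 CPM in Plvap-negative and 548 CPM in Plvap-positive members of wild type. None of the 14 mural markers was at 0 over the members of either library. Their part in the Plvap-negative values was not tested.

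Members with 0 UMIs of Plvap and 3 or more of Plat came closest to the textbook glomerular capillary cell, though they carried arterial genes as well. There were 20 in PT I-PpoI (5.54% of members, 3.42 to 8.43) and 25 in wild type (3.88%, 2.52 to 5.67), and they held 31.1% and 14.5% of all Ehd3 UMIs of the members. Both limits are UMI counts, so they depend on depth and are open to free RNA. The PT I-PpoI member with the most Ehd3, 127 UMIs, had Plat at 48.2 and Plvap at 0.328 per 10000, and so fell outside. The Plat-rich cells, those inside both limits, were deeper than the median member, at a median of 7988 UMIs in the PT I-PpoI library and 3024 in the wild-type one. Their median Ehd3 count was 12.5 UMIs in PT I-PpoI, against 6 in wild type, and Ehd3 stood at 1515 CPM in them and 257 CPM in the remaining members of PT I-PpoI, and at 1167 CPM in Plat-rich and 423 CPM in remaining members of wild type. Emcn was at 2826 CPM in Plat-rich and 1932 CPM in remaining members of PT I-PpoI and at 3458 CPM in Plat-rich and 2279 CPM in remaining members of wild type, and Kdr at 1566 CPM in Plat-rich and 945 CPM in remaining members of PT I-PpoI and at 1722 CPM in Plat-rich and 1295 CPM in remaining members of wild type. Ehd3, Emcn and Kdr, all used in the selection, were thus higher in these Plat-rich cells in both libraries. Several arterial genes were higher too. The log2 ratio of Plat-rich over remaining members was 3.01 within PT I-PpoI and 3.45 within wild type for Gja5, and 1.68 and 2.09 for Jag1. For Sox17 it was -0.45 and 0.43. A UMI of Gja4, Gja5 or Fbln5 was read in 17 of the 20 Plat-rich cells of PT I-PpoI and 12 of the 25 of wild type.

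Genes of the glomerular list and a few others, picked after their values were seen, were set against the remaining members. Gata5, a transcription factor of glomerular endothelium, stood at 94.9 CPM in them (26 UMIs, 62.0 to 139) and 2.24 CPM in the remaining members of PT I-PpoI, and at 79.2 CPM (11 UMIs, 39.6 to 142) and 0.884 CPM in wild type. A Gata5 UMI was read in 11 of the 20 cells in PT I-PpoI and 8 of the 25 in wild type. Smad6, an inhibitor of BMP signalling, stood at 267 CPM in Plat-rich and 62.9 CPM in remaining members of PT I-PpoI and at 252 CPM in Plat-rich and 32.3 CPM in remaining members of wild type. The transcription factor Tbx3 stood at 241 CPM in Plat-rich and 83.6 CPM in remaining members of PT I-PpoI and at 245 CPM in Plat-rich and 34.1 CPM in remaining members of wild type. These 3 were higher in the Plat-rich cells of both libraries, whereas Sost, a Wnt inhibitor, was not: it stood at 7.30 CPM in Plat-rich (2 UMIs) and 42.5 CPM in remaining members of PT I-PpoI, and at 72.0 CPM in Plat-rich (10 UMIs) and 12.8 CPM in remaining members of wild type. Dkk2, a Wnt pathway modulator, stood at 712 CPM in Plat-rich and 179 CPM in remaining members of PT I-PpoI and at 756 CPM in Plat-rich and 104 CPM in remaining members of wild type. Lipoprotein lipase, Lpl, was at 354 CPM in Plat-rich and 66.5 CPM in remaining members of PT I-PpoI and at 684 CPM in Plat-rich and 156 CPM in remaining members of wild type, and Nostrin, a regulator of nitric oxide synthase traffic, at 139 CPM in Plat-rich and 42.5 CPM in remaining members of PT I-PpoI and at 122 CPM in Plat-rich and 44.2 CPM in remaining members of wild type. Thick ascending limb barcodes carried Lpl as well, in 53.4% of PT I-PpoI and 32.0% of wild type after thinning.

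Of the capillary genes looked at in the same cells, Esm1, Igfbp3, Rgcc and Npr3 were lower in both libraries and Igfbp5 was not. Esm1 stood at 84.0 CPM in them and 910 CPM in the remaining members of PT I-PpoI, and at 36.0 CPM in Plat-rich and 1267 CPM in remaining members of wild type, and Igfbp3 at 263 CPM in Plat-rich and 632 CPM in remaining members of PT I-PpoI and at 115 CPM in Plat-rich and 726 CPM in remaining members of wild type. Igfbp5 stood at 3030 CPM in Plat-rich and 2240 CPM in remaining members of PT I-PpoI and at 2507 CPM in Plat-rich and 3874 CPM in remaining members of wild type. Rgcc and Npr3 had 1 UMI each in these cells of PT I-PpoI and 0 in wild type. The podocyte gene Nphs1 had 0 UMIs in these cells of both libraries, which allows a level of up to 10.95 CPM in PT I-PpoI and 21.6 CPM in wild type (3 counts), and Acta2, smooth muscle actin, was at 32.9 CPM in Plat-rich and 74.6 CPM in remaining members of PT I-PpoI and at 108 CPM in Plat-rich and 149 CPM in remaining members of wild type. Acta2 was therefore not above the level of the remaining members in this small group.

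Against the other endothelium, without Ehd3 and Slc14a1, the members as a whole differed in few genes. Of 2883 genes tested, 2 (0.0694%) were 2-fold or more higher in members in both libraries, Ehd3 by the selection and Plat, and 2 (0.0694%) were 2-fold or more lower. The lower genes were Cd74, the invariant chain of class II antigen presentation, and H2-Eb1, a class II chain. Cd74 stood at 53.7 CPM in members and 171 CPM in other endothelium of PT I-PpoI, and at 164 CPM in members and 339 CPM in other endothelium of wild type. H2-Eb1 stood at 33.2 CPM in members and 72.8 CPM in other endothelium of PT I-PpoI and at 77.9 CPM in members and 158 CPM in other endothelium of wild type. The 14 leukocyte markers summed to 24.4 CPM in members and 95.5 CPM in other endothelium of PT I-PpoI, and to 99.2 CPM in members and 358 CPM in other endothelium of wild type. Leukocyte genes therefore moved with Cd74 and H2-Eb1, Ptprc was at 0 by the selection, and their part was not tested. Subtraction of the estimated free RNA left 0% of the Cd74 and H2-Eb1 UMIs of the members in either library, so their levels in members were not above free RNA.

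Against Slc14a1-positive endothelium, the descending vasa recta type (63 barcodes of PT I-PpoI, 101 of wild type), 92 of 2973 genes (3.09%) were 2-fold or more higher in both libraries and 101 (3.4%) lower. Igfbp5, an IGF-binding protein of cortical capillaries, was higher by log2 ratios of 5.39 within PT I-PpoI and 5.62 within wild type, Pi16 by 6.60 and 6.27, and Npr3 by 5.19 and 7.97. Aqp1, the water channel of descending vasa recta, was lower at -6.78 and -5.59, and Cldn5 at -1.75 and -3.30. Plat was level, at 0.06 within PT I-PpoI and -0.03 within wild type.

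Between the 2 libraries, 134 of 3404 genes tested (3.94%) were 2-fold or more higher in PT I-PpoI members and 87 (2.56%) were 2-fold or more lower. Genes tested had a mean of 50 CPM or more over the 2 libraries. The median log2 ratio of all of them was 0.19, and TMM scaling would move every ratio by -0.16, which gives 91 higher and 113 lower and a median of 0.04. A total without mitochondrially encoded genes and the ribosomal RNA-like models Gm42418 and AY036118 gave 100 and 125. The split between higher and lower thus turned with the scaling, and ratios are read against these shifts. Counts within each gene list below are likewise read beside the 3.94% higher and 2.56% lower of all genes tested. Gm42418 alone took 24076 CPM in PT I-PpoI and 65023 CPM in wild type, and the nuclear RNA Malat1 23423 CPM in PT I-PpoI and 36411 CPM in wild type.

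All 11 proximal tubule markers tested were lower in PT I-PpoI members, the 15 listed summed to 123 CPM in PT I-PpoI and 8963 CPM in wild type with 0 of them at 0 in either library, and Kap alone stood at 10.9 CPM in PT I-PpoI and 5706 CPM in wild type. Loop and distal tubule markers summed to 4872 CPM in PT I-PpoI and 2803 CPM in wild type, and 43 and 29 members held the thick limb and distal genes at 10 or more per 10000 UMIs. With free RNA subtracted the ratios of Hspa1a, Sox17 and Edn1 were 3.16, 1.70 and 2.12, and without the tubule-rich barcodes they were 3.36, 1.87 and 2.21, all past 2-fold. Podocyte markers summed to 679 CPM in PT I-PpoI and 360 CPM in wild type, with 3 of 5 tested 2-fold or more higher in PT I-PpoI (Cdkn1c, Thsd7a and Npnt), Nphs1 at 2.6 CPM in PT I-PpoI, and 3 of 14 listed at 0 in wild type. Their part in other values was not tested.

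Stress-inducible chaperones were among the genes with the largest ratios. Hspa1a, an HSP70 that refolds damaged proteins, stood at 2736 CPM in PT I-PpoI and 283 CPM in wild type, a log2 ratio of 3.27 (3.16 to 3.39). The median PT I-PpoI member had 17.6 Hspa1a UMIs per 10000 with quartiles of 6.83 and 40.5, and the median wild-type member had 0 with an upper quartile of 3.28, so the bulk of the cells differed and not a few. After thinning, 72.0% of PT I-PpoI members and 15.3% of wild-type members had an Hspa1a UMI, against 16.9% and 5.14% of thick ascending limb barcodes. Hspa1b, its near-identical neighbour, stood at 1125 CPM in PT I-PpoI and 153 CPM in wild type (log2 2.88, 2.73 to 3.04), and reads shared by the pair make the split between them uncertain. The small chaperone Hspb1 stood at 3079 CPM in PT I-PpoI and 985 CPM in wild type (1.64, 1.58 to 1.71) and the co-chaperone Dnajb1 at 145 CPM in PT I-PpoI and 50.8 CPM in wild type (1.51, 1.23 to 1.81).

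These 4 were the chaperones past 2-fold of 17 tested, and the list's median was 0.13, below that of all genes. The constitutive Hspa8 was at 1408 CPM in PT I-PpoI and 1167 CPM in wild type (0.27), Hsp90aa1 at 462 CPM in PT I-PpoI and 423 CPM in wild type (0.13), and the endoplasmic reticulum chaperone Hspa5 at 407 CPM in PT I-PpoI and 390 CPM in wild type (0.06). Mitochondrial Hspe1 was at 205 CPM in PT I-PpoI and 349 CPM in wild type (-0.77). The higher levels were therefore those of a few inducible members. Dnajb1 did not reach 2-fold with every cell thinned (0.92). Hspa1a was also high in the Plvap-negative members, at 2594 CPM in PT I-PpoI and 215 CPM in wild type (3.58, 3.20 to 4.01), in the 20 and 25 Plat-rich members, at 2556 CPM in PT I-PpoI and 137 CPM in wild type (4.19, 3.57 to 4.96), and in other endothelium, at 2672 CPM in PT I-PpoI and 332 CPM in wild type (3.01).

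The promoters of the inducible chaperones are known targets of heat-shock factor 1, which binds inverted repeats of the unit NGAAN. The 250 bases before the start of Hspa1a (chr17:34972157-34972406, minus strand) and of Hspb1 (chr5:135887669-135887918, plus strand) are shown from RefSeq, build GRCm38.p6, because both genes were past 2-fold higher in PT I-PpoI members and hold the motif. Capitals mark each match to GAANNTTC or TTCNNGAA, palindromes that read the same on both strands.
Hspa1a: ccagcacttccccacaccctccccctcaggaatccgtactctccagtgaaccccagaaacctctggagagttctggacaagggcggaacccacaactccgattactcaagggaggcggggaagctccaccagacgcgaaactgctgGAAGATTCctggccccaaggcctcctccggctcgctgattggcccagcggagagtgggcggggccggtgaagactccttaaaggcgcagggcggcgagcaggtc
Hspb1: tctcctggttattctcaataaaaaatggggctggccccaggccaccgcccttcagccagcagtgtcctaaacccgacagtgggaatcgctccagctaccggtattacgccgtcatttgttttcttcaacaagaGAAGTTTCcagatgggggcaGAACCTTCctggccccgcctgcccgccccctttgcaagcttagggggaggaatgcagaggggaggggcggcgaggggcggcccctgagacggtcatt
Hspa1a held 1 match, 104 bases before the start, and Hspb1 held 2, at 117 and 97 bases. The Hspa1b window was identical to that of Hspa1a at 247 of 250 bases and held the same match. Over windows of 300 bases that run on to 50 past the start, 4946 of 32851 RefSeq promoter windows held a match (15.06%). Of the 13 chaperone genes tested that had a window, a match in any window was found in 3 of the 4 genes past 2-fold and in 5 of the 9 within 2-fold. Some genes had more than 1 window, such as Dnaja1 with 3, so these counts of genes are not on the scale of the 15.06% of single windows. A match is a description of the letters and not of binding.

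Immediate early genes, transcription factors and feedback regulators that respond to stress within minutes and also to tissue dissociation, were higher as a list. Of 24 tested, 12 were 2-fold or more higher in PT I-PpoI members and 0 lower, with a median of 1.01 against 0.19 for all genes tested. Jun stood at 1992 CPM in PT I-PpoI and 676 CPM in wild type (1.56, 1.48 to 1.64), Junb at 878 CPM in PT I-PpoI and 239 CPM in wild type (1.87) and Fos at 422 CPM in PT I-PpoI and 191 CPM in wild type (1.14). The growth arrest gene Gadd45g stood at 438 CPM in PT I-PpoI and 117 CPM in wild type (1.91), Ier3, an inhibitor of apoptosis, at 361 CPM in PT I-PpoI and 101 CPM in wild type (1.83), and Socs3, a brake on cytokine signalling, at 109 CPM in PT I-PpoI and 32.9 CPM in wild type (1.72). Egr1 stood apart at 119 CPM in PT I-PpoI and 110 CPM in wild type (0.12). In other endothelium the list's median was 1.04.

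Arterial and arteriolar genes were higher in PT I-PpoI members, 8 of 14 tested and 0 lower, with a median of 1.42. Over all genes tested, 3.94% were higher and 2.56% lower, with a median of 0.19. Edn1, the vasoconstrictor endothelin 1, stood at 342 CPM in PT I-PpoI and 74.6 CPM in wild type (2.19, 1.97 to 2.43). Sox17, a transcription factor of arterial identity, stood at 950 CPM in PT I-PpoI and 263 CPM in wild type (1.85, 1.73 to 1.98), and was read in 28.3% of thinned PT I-PpoI members and 15.3% of thinned wild-type members, against 0.263% and 0.109% of thick ascending limb barcodes. The connexin Gja4 stood at 333 CPM in PT I-PpoI and 92.5 CPM in wild type (1.85, 1.64 to 2.06) and was read in 13.9% and 4.65% of thinned members, against 0.131% and 0 of 915 thick ascending limb barcodes. Fbln5, an elastic fibre protein, was at 461 CPM in PT I-PpoI and 115 CPM in wild type (2.01), Jag1 at 202 CPM in PT I-PpoI and 52.9 CPM in wild type (1.93), Vegfc at 122 CPM in PT I-PpoI and 35.8 CPM in wild type (1.75), Stmn2 at 243 CPM in PT I-PpoI and 80.0 CPM in wild type (1.60) and Sema3g, a secreted guidance cue, at 321 CPM in PT I-PpoI and 135 CPM in wild type (1.25). The Notch ligand Dll4 was at 122 CPM in PT I-PpoI and 99.2 CPM in wild type (0.29).

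Within the Plvap-negative members the same list had a median of 0.57, against 0.14 for all genes tested there. Edn1 was at 355 CPM in PT I-PpoI and 227 CPM in wild type (0.63, 0.20 to 1.10), the Sox17 ratio was 0.51 (0.23 to 0.80), that of Gja4 0.87 (0.54 to 1.23), and that of Mgp 0.12 (-0.09 to 0.35), while Jag1 kept a ratio of 1.66 (1.25 to 2.12). In Plvap-positive members Edn1 was at 340 CPM in PT I-PpoI and 56.8 CPM in wild type, so its difference between libraries lay mainly in the Plvap-positive cells. Whether the ratios of the subsets differ was not tested.

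Some junction and caveola genes were past 2-fold. Cldn5 stood at 509 CPM in PT I-PpoI and 171 CPM in wild type (1.57, 1.42 to 1.73), and Jam2, a junctional adhesion molecule, at 231 CPM in PT I-PpoI and 101 CPM in wild type (1.19), and the list of 17, which includes the selection genes Cdh5 and Pecam1, had a median of 0.32. Of 12 fenestra and caveola genes, Cavin1 at 219 CPM in PT I-PpoI and 80.8 CPM in wild type (1.44), Ehd2 at 236 CPM in PT I-PpoI and 102 CPM in wild type (1.21) and Cav1 at 233 CPM in PT I-PpoI and 108 CPM in wild type (1.11, and 0.94 with each cell weighted equally), which build and stabilise caveolae, were 2-fold or more higher, and Plvap was at -0.44 (-0.50 to -0.39), or -0.02 with each cell weighted equally. So weighted, Ehd2 (0.66) and Jam2 (0.72) also fell short of 2-fold. In Plvap-negative members the Cav1 ratio was 0.09 (-0.33 to 0.53).

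**Figure D3:**
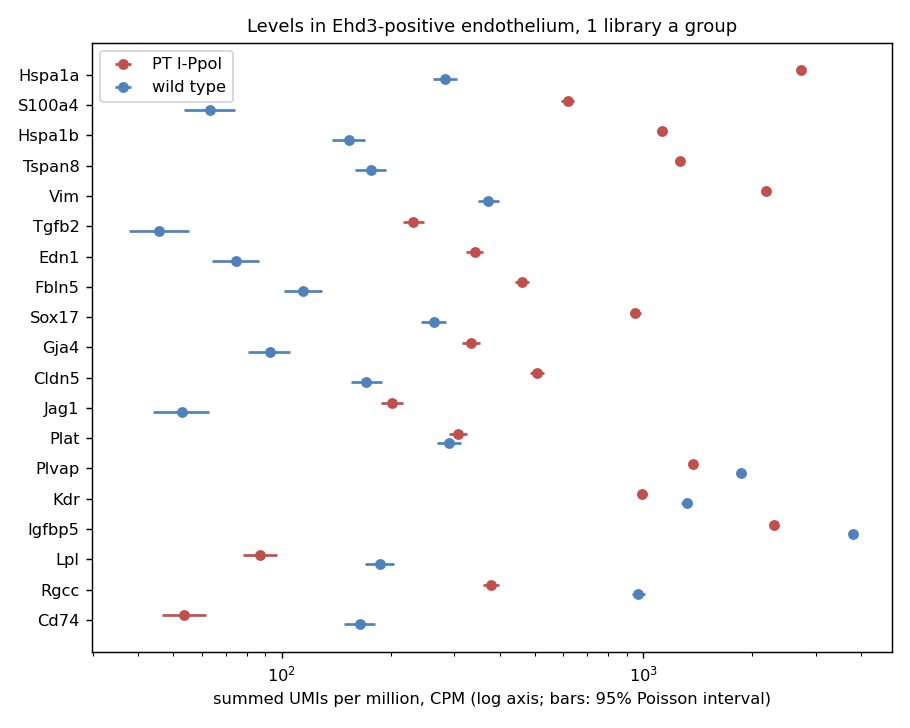
Summed CPM of selected genes in Ehd3-positive endothelium on a log axis, with PT I-PpoI in red above wild type in blue and 95% Poisson intervals, 1 library a group. Chaperone and arterial genes lie higher in PT I-PpoI, Plat is level, and Igfbp5, Lpl, Rgcc and Cd74 lie lower.

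Among signalling genes, the VEGF receptors Flt1 and Nrp1 were within 2-fold. Flt1, the decoy receptor, was at 1559 CPM in PT I-PpoI and 1760 CPM in wild type (-0.17), and Nrp1 at 859 CPM in PT I-PpoI and 829 CPM in wild type (0.05). Of 20 VEGF, angiopoietin and Notch genes tested, the Notch genes Jag1, Jag2 (194 CPM in PT I-PpoI and 56.7 CPM in wild type, 1.77) and Notch4 (170 CPM in PT I-PpoI and 84.2 CPM in wild type, 1.01) and Sema3g were past 2-fold, and the list's median was 0.07. In the BMP and TGF-beta list 3 of 15 were higher: the ligand Tgfb2 at 231 CPM in PT I-PpoI and 45.8 CPM in wild type (2.33, 2.04 to 2.63), the receptor Acvrl1 at 281 CPM in PT I-PpoI and 130 CPM in wild type (1.11) and the latent binding protein Ltbp4 at 716 CPM in PT I-PpoI and 342 CPM in wild type (1.07). With each cell weighted equally Sema3g (0.87), Notch4 (0.65), Acvrl1 (0.68) and Ltbp4 (0.44) fell short of 2-fold. The BMP target genes Id1 and Id3 were at 0.15 and 0.06. For Tgfb2 the ratio within Plvap-negative members was 0.46 (-0.01 to 0.96).

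Transcription factors beyond Sox17 included Klf4, a shear-responsive factor, at 716 CPM in PT I-PpoI and 274 CPM in wild type (1.39), Zeb2 at 167 CPM in PT I-PpoI and 71.3 CPM in wild type (1.23), Foxp1 at 450 CPM in PT I-PpoI and 197 CPM in wild type (1.19) and Tbx3 at 94.8 CPM in PT I-PpoI and 46.3 CPM in wild type (1.03), 5 of 24 tested in all. Klf2, the other main shear-responsive factor, was at 1805 CPM in PT I-PpoI and 1178 CPM in wild type (0.61). Of the anticoagulant genes, thrombomodulin, Thbd, stood at 558 CPM in PT I-PpoI and 254 CPM in wild type (1.13, 1.00 to 1.27), and at a ratio of 0.58 with each cell weighted equally, while Plat was level at 0.08 (-0.06 to 0.22). Nos3, endothelial nitric oxide synthase, stood at 141 CPM in PT I-PpoI and 71.3 CPM in wild type (0.98). Of 21 matrix genes, Fbln2 at 293 CPM in PT I-PpoI and 68.3 CPM in wild type (2.09), Fbln5 and agrin, Agrn, at 96.8 CPM in PT I-PpoI and 47.9 CPM in wild type (1.01) were higher, while the basement membrane chains Col4a1 and Col4a2 were at -0.32 and -0.21. Foxp1 (0.76), Tbx3 (0.63) and Agrn (0.57) were below 2-fold with each cell weighted equally.

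Other genes named by rank included S100a4, a calcium-binding protein of motile cells, at 617 CPM in PT I-PpoI and 63.3 CPM in wild type (3.28, 3.05 to 3.53), and Tspan8, a tetraspanin, at 1261 CPM in PT I-PpoI and 176 CPM in wild type (2.84, 2.70 to 2.99). Vimentin, Vim, the intermediate filament of endothelium, stood at 2189 CPM in PT I-PpoI and 373 CPM in wild type (2.55, 2.46 to 2.66). Pi16, a gene of the glomerular list, stood at 326 CPM in PT I-PpoI and 79.2 CPM in wild type (2.04), and the interferon gene Ifi27l2a at 284 CPM in PT I-PpoI and 69.6 CPM in wild type (2.03, and 0.84 with cells thinned). Fxyd4, at 225 CPM in PT I-PpoI and 34.6 CPM in wild type (2.69), is a collecting duct gene and stood beside higher distal tubule markers in the same members. In the Plat-rich members S100a4 had a ratio of 3.80 (2.82 to 5.22), Vim of 2.05 (1.72 to 2.42) and Tspan8 of 1.99 (1.34 to 2.77).

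Only 7 genes met the naming rule on the lower side, and 6 of them, all but Lars2, fell short of 2-fold with each cell weighted equally, with cells thinned or with free RNA subtracted. Lars2, a mitochondrial tRNA synthetase, stood at 1127 CPM in PT I-PpoI and 3204 CPM in wild type (-1.51). The ribosomal RNA-like model Gm42418 had a ratio of -1.43, and whether Lars2 moved with it was not tested. Rgcc stood at 380 CPM in PT I-PpoI and 967 CPM in wild type (-1.35, -1.44 to -1.25). With each cell weighted equally the Rgcc ratio was -0.60, and it was -0.58 with cells thinned. The others were Fmo1 (-1.46), Gchfr (-1.13), Enho (-1.10), the matrix proteoglycan Bgn (88.3 CPM in PT I-PpoI and 191 CPM in wild type, -1.12) and Ren1 (-1.50), which rests on 1 wild-type barcode that held 439 of its 453 UMIs. Beyond that rule, Lpl stood at 87.0 CPM in PT I-PpoI and 186 CPM in wild type (-1.10, -1.31 to -0.89), at -0.74 with each cell weighted equally, and at -0.95 (-1.37 to -0.53) in the Plat-rich members. After thinning, Lpl was read in 4.16% of PT I-PpoI and 9.61% of wild-type members. In thick ascending limb barcodes the shares were higher, at 53.4% and 32.0%. The part of tubule RNA in the Lpl values was not tested. Capillary and venous genes had 0 of 13 past 2-fold in either direction, with a median of -0.40. Igfbp5 was at 2296 CPM in PT I-PpoI and 3795 CPM in wild type (-0.72) and Gpihbp1, which carries Lpl across capillary endothelium, at 233 CPM in PT I-PpoI and 407 CPM in wild type (-0.80), and with each cell weighted equally they were at -0.25 and -0.04.

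Immune and DNA damage lists were read against the 3.94% of all genes higher and 2.56% lower. Of 25 interferon genes, Ifi27l2a and Irf7 (124 CPM in PT I-PpoI and 53.8 CPM in wild type, 1.20) were 2-fold or more higher, Irf7 at 0.91 with each cell weighted equally, and the median was 0.30, and the 18 class I antigen presentation genes held 0 past 2-fold, with a median of 0.28. Of 4 class II genes 3 were lower, Cd74 (-1.61), H2-Aa (-1.29) and H2-Eb1 (-1.23), beside leukocyte markers at 24.4 CPM in PT I-PpoI and 99.2 CPM in wild type, with Ptprc, Cd3e and Cd3g at 0 in PT I-PpoI, whose part was not tested. Subtraction of free RNA left 0% of the UMIs of these 3 genes in either library, so no ratio above free RNA could be had for them. Of 10 p53 targets tested 0 were past 2-fold, with a median of 0.20. Cdkn1a, the cell cycle inhibitor p21, stood at 154 CPM in PT I-PpoI and 149 CPM in wild type (0.05, -0.14 to 0.24) in members, and its ratio in other endothelium was 0.88. In the Plat-rich members it stood at 190 CPM in PT I-PpoI and 360 CPM in wild type (-0.92, -1.51 to -0.33). None of the 29 double-strand break repair genes listed reached the level for testing.

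**Figure D4:**
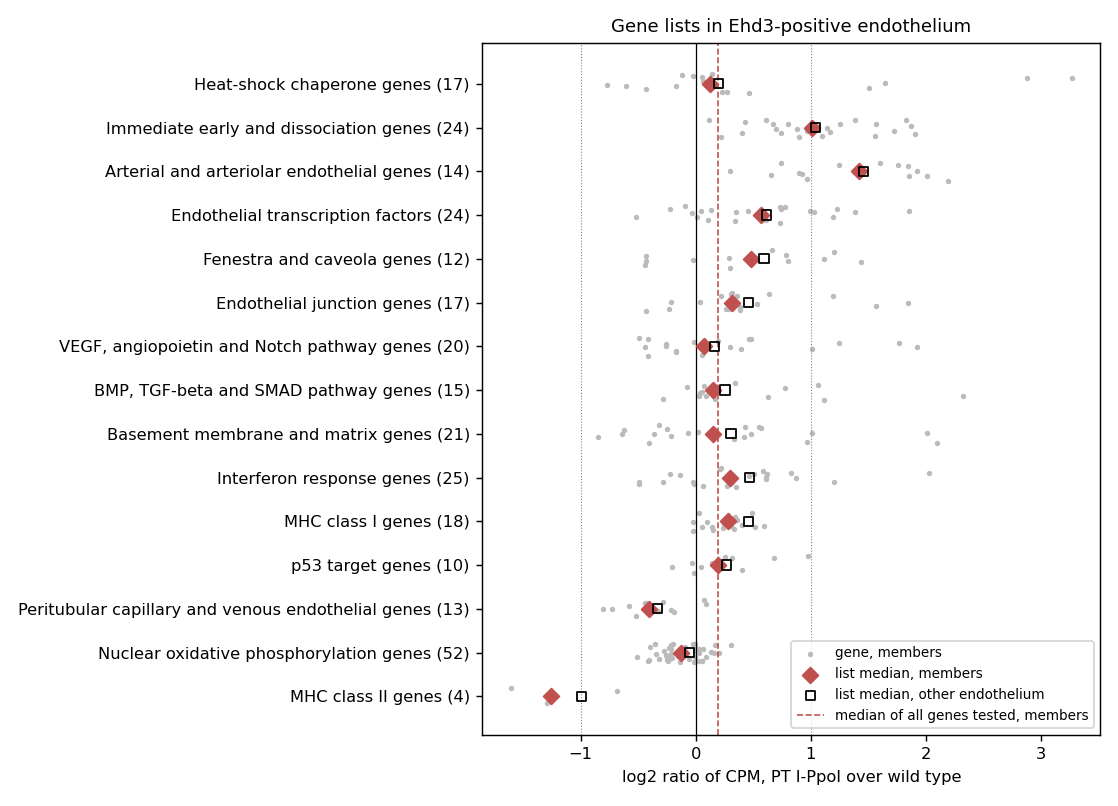
Log2 ratio of CPM, PT I-PpoI over wild type, for the tested genes of each list in Ehd3-positive endothelium (grey points), with the list median in members (red diamond) and in other endothelium (open square). The number of genes tested is in brackets, dotted lines mark 2-fold, and the dashed line is the median of all genes tested, 0.19. Immediate early and arterial genes lie to the right and class II genes to the left in both endothelial sets.

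The ratios of the members were set against those of other endothelium. Of 3153 genes, the log2 ratio was 1 or more higher in members for 17 (0.539%) and 1 or more lower for 13 (0.412%). Among the 17 were S100a4, at 3.28 in members and 1.94 in other endothelium, Tspan8, at 2.84 and 1.73, and the smooth muscle genes Acta2 and Tagln, beside mural markers that summed to 596 CPM in members and 799 CPM in other endothelium of PT I-PpoI and to 798 CPM in members and 449 CPM in other endothelium of wild type. Ren1, mostly from 1 barcode, was 549 CPM of the sum in other endothelium of PT I-PpoI, and without it the sums were 529.8 CPM in members and 250.3 CPM in other endothelium of PT I-PpoI and 609 CPM in members and 435 CPM in other endothelium of wild type, so that the direction within PT I-PpoI turned. Most of the rest were tubule genes such as Aqp2, S100g, Slc34a1 and Gatm on the higher side and Kap, Napsa and Slc12a3 on the lower side, beside proximal tubule markers at 123 CPM in members and 696 CPM in other endothelium of PT I-PpoI, and at 8963 CPM in members and 9427 CPM in other endothelium of wild type. The part of mural and tubule RNA in these differences was not tested. Hspa1a (3.27 and 3.01), Sox17 (1.85 and 1.45), Gja4 (1.85 and 1.63) and Cldn5 (1.57 and 1.73) were within that limit. With 1 library a group, such a difference has no replicate check.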

How the data were processed

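Raw UMI counts per gene and barcode were used as the authors deposited them, unfiltered, with 31053 genes. Per the labels' protocols, cortex was digested with collagenase and protease at 37 °C and made into 10x 3' v3.1 libraries. Cell Ranger 3.1, Seurat 3 and mm10 are named by the submitters' processing notes, while the matrix headers name Cell Ranger 4. Members and gene lists were chosen with earlier results of these data known. UMIs were summed per library and set of cells and scaled to CPM. A prior of 0.5 was added to both sums for log2 ratios. Intervals are exact: conditional binomial for ratios, Poisson for CPM and Clopper-Pearson for shares. A gene was tested at a mean of 50 CPM and called at 2-fold. Genes named were up to 12 each way, ranked by the interval bound nearest 0 (by the smaller ratio of the libraries, for contrasts within a library). For PT I-PpoI over wild type, 50% or more of their UMIs in the library where they were higher had to remain once free RNA was subtracted. The sign in the mean over cells also had to be the same. Contrasts within a library had neither filter. Xist, Y-linked, ribosomal protein, mitochondrial, immunoglobulin and haemoglobin genes and unnamed models were left out. List members furthest from 0 and textbook genes were added. Free RNA was profiled in barcodes of 10 to 100 UMIs. Python 3.11.15, scipy 1.17.1, scanpy 1.11.5 (Scrublet) and edgeR 4.0.16 (TMM factors only) were used, and the ratios were checked on simulated data.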

Additional observations from a re-analysis of the deposited data

Results flagged for a closer look

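Renin, Ren1, the enzyme secreted by juxtaglomerular cells of the afferent arteriole, differed in opposite directions between the members and the other endothelium. It stood at 66.5 CPM in PT I-PpoI and 189 CPM in wild type in Ehd3-positive endothelium (log2 -1.50), and at 549 CPM in PT I-PpoI and 14.5 CPM in wild type in other endothelium (log2 5.23), a difference of the ratios of -6.73 (-7.15 to -6.32, counting error only). With 1 library a group the difference was not tested. Single barcodes held large parts of the counts: 106 of 256 UMIs in PT I-PpoI members and 439 of 453 in wild-type members, and 1849 of 1886 in PT I-PpoI and 28 of 67 in wild type in the other endothelium. Without the highest barcode of each set, 150 and 14 UMIs were left in members and 37 and 39 in other endothelium.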

How the results depend on the processing

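No paired analysis was possible because each group had 1 library and no result comes from a test over samples. Of 629 comparisons of single genes with another setting, 581 kept their side of 2-fold, 43 fell below 2-fold and 2 passed it. Another 3 reversed, all for Ren1: 7.49 with 2 or more Ehd3 UMIs, 3.29 with endothelial genes at 10 per 10000 and 3.88 in Plvap-positive members only. A change of sign that stayed below 2-fold counted among the 581, such as Kdr at -0.42 and, with each cell weighted equally, 0.02. In Plvap-negative members only, Sox17 (0.51), Gja4 (0.87), Edn1 (0.63), Tgfb2 (0.46), Klf4 (0.17), Cav1 (0.09), Tspan8 (0.57) and Thbd (0.40) were among those below 2-fold. List medians moved in 19 of 476 comparisons. A move meant a shift of at least the standard deviation of the single-gene ratios in the list. That limit is wide for a median, so the count is no measure of stability. The Plvap subsets, the omission of barcodes with tubule genes, the mural sums without Ren1, and the totals without mitochondrial and ribosomal RNA-like models were settings chosen after seeing the data.

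Genes higher in PT I-PpoI members, 134, became 77 with the mean over cells, 255 at 20 CPM, 76 at 100 CPM and 1630 with no filter. Genes lower, 87, became 45 with the mean over cells, 56 thinned, 45 with free RNA subtracted, 55 without Scrublet doublets, 198 at 20 CPM, 40 at 100 CPM and 2120 with no filter. With free RNA subtracted, 105 of the 134 and 20 of the 87 were still called. Without barcodes rich in tubule genes, 150 and 95 were called, sharing 130 and 80. In Plvap-negative members alone 158 and 126 of 3539 were called, sharing 33 and 59.

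Members over other endothelium gave, for 2 higher, 4 thinned, 4 at 20 CPM and 263 with no filter, and for 2 lower, 1 at up to 20% mitochondrial UMIs, 1 without tubule-rich barcodes, 1 at 100 CPM, 5 with the mean over cells, 5 thinned and 307 with no filter. The difference of ratios gave, for 17 higher, 38 at 2 Ehd3 UMIs, 8 with the mean over cells, 37 thinned and 10 with free RNA subtracted, and for 13 lower, 7 at 2 Ehd3 UMIs, 8 with endothelial genes at 10 per 10000, 8 without doublets, 3 with the mean over cells and 44 thinned.

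The members' share of kept barcodes was 12.2% in PT I-PpoI, against 8.88% in wild type at up to 20% mitochondrial UMIs, 3.57% and 2.26% at 2 or more Ehd3 UMIs, and 11.4% and 6.74% without tubule-rich barcodes. Their share of endothelium was 20.6% and 10.04% at 2 or more Ehd3 UMIs, and 32.97% in wild type from 2000 UMIs. Unthinned shares of members with a UMI were 53.7% and 33.5% for Plat, 89.8% and 92.2% for Plvap, 34.3% and 10.7% for Gja4, and 89.8% and 33.6% for Hspa1a. The wild-type cells were shallower, which limits their low genes most. The causes of these shifts were not tested.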

Other observations

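Nuclear oxidative phosphorylation genes had 0 of 52 past 2-fold in PT I-PpoI over wild type members, with a median log2 ratio of -0.13, where the genes tested as a whole had a median of 0.19 and a lower quartile of -0.03, and glycolysis genes 0 of 11, with a median of 0.08. Of 10 glycocalyx genes tested 1 was past 2-fold, the sulfatase Sulf2 at 73.0 CPM in PT I-PpoI and 35.4 CPM in wild type (1.04, 0.69 to 1.41), and the sialomucin Podxl was at 1103 CPM in PT I-PpoI and 798 CPM in wild type (0.47). Of 9 leukocyte adhesion and chemokine genes tested, Jam2 alone was past 2-fold, and Icam1 was at 51.4 CPM in PT I-PpoI and 81.3 CPM in wild type (-0.66) and Vcam1 at 104 CPM in PT I-PpoI and 97.9 CPM in wild type (0.09).

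The 8 lipid handling genes tested had a median log2 ratio of -0.50 in PT I-PpoI over wild type, and the fatty acid binding proteins Fabp4 and Fabp5 were both at -0.56. Fabp4 was one of the lipid genes lower in Plvap-negative than in Plvap-positive members, with log2 ratios of -1.55 within PT I-PpoI and -2.20 within wild type.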
